A study of Mus musculus with 3 samples.

Results

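The peaks described here are the high-scoring dispersed peaks of KAP1 in proliferating C2C12 cells, an established mouse myoblast line. They were chosen by their own score and spacing. All KAP1 peaks were first joined into chains wherever the gap between neighbours was 10 kb or less, and peaks in chains of 10 or more were set aside. Of the rest, those with a deposited score above 800 were kept. This left 237 peaks, 1.21% of the 19549 in the list and 65.7% of the 361 that scored above 800. Because the score chose them, their scores and widths are given as a description with no test. The H3K9me3 list comes from another library and is not used by the rule, although the rule was set with earlier results of these data known.

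The study mapped proteins on chromatin by chromatin immunoprecipitation with sequencing (ChIP-seq), in which DNA crosslinked to a protein is pulled down with an antibody and sequenced. The cells were myoblasts of strain C3H that were labelled as proliferating. A KAP1 library was made with a home-made rabbit polyclonal antibody, an H3K9me3 library with an antibody from Diagenode, and a further library with no antibody, which is not analysed here, so enrichment without antibody could not be set beside these peaks. There was 1 library per antibody, so no value has a replicate error, and the read depth of each library is unknown. Intervals below are 95% Wilson intervals that cover counting over peaks only, and neighbouring peaks are not independent.

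KRAB zinc finger proteins recognise DNA and recruit KAP1, also called TRIM28, as their corepressor. KAP1 in turn recruits the histone methyltransferase SETDB1, which makes H3K9me3 (trimethylated lysine 9 of histone H3), and HP1, which binds that mark, and in mouse cells it is best known for silencing endogenous retroviruses and for acting at imprinting control regions. Transfer RNA genes, which RNA polymerase III transcribes, are short and often stand in groups, and the largest group in the mouse lies on chromosome 13 beside replication-dependent histone genes. No annotation or sequence of the mm9 build was used here, so peaks are named by position (mm9, counted from 1), no sequence is shown, and which of them lie at such genes was not tested.

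The scores of these peaks ran along a long flat tail of the list and ended in a tie. The lowest was 808, the median 2148 and the highest 3199, with quartiles of 1339 and 3100, while the median of the whole list was 106.1. The number of dispersed peaks fell from 319 with scores above 400 to 500 to 63 above 700 to 800 and 20 above 800 to 900. From there to 2700 each step of 100 held between 4 and 13 peaks. A score of exactly 3100 was shared by 57 of the 237 peaks (24.1%, interval 19.1 to 29.9), by 42 peaks of the dense chains and by no others. The remaining 180 peaks all had different scores. Of these, 6 were above 3100 and the next below was 3081. Neither the quantity behind the score nor the origin of the shared value is stated. Order within the tie cannot be read from the list, and whether the tied peaks belong below the 6 above 3100 is unknown.

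**Figure D1:**
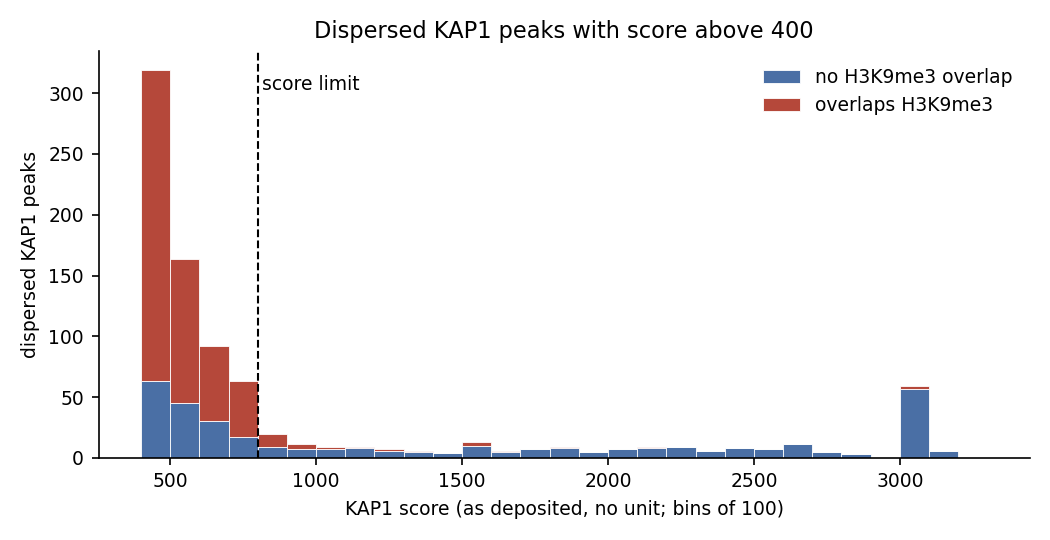
Number of dispersed KAP1 peaks (vertical axis) by deposited KAP1 score in bins of 100 (horizontal axis, no unit), split by overlap with an H3K9me3 region. Only scores above 400 are drawn, and the dashed line marks the limit of 800. Above 400 to 800 most peaks overlapped H3K9me3 (483 of 638), with 46 of 63 in the last bin before the line. Of all dispersed peaks with a score of 800 or less, 45.4% did. In the first bin after the line 11 of 20 did. Further right most did not, and 57 of the 59 peaks of the bin from above 3000 to 3100 had no overlap.

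The 5 peaks just above the limit of 800 scored between 808 and 816, and 2 of these overlapped H3K9me3, namely chr9:27604783-27606544 and chr10:104614249-104616707. The 5 dispersed peaks just below it scored between 785 and 795. Among those, 3 overlapped H3K9me3, on chromosomes 10, 19 and 2, and each of the 3 was covered in full.

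Ranked by deposited score, chr19:5037850-5038790 came first at 3199 and had no other KAP1 peak within 10 kb. It was followed by chr13:22113885-22114634 at 3177 and chr1:167571515-167572066 at 3176. Then came chr6:38483590-38484398 at 3172 and chr4:10800828-10801545 at 3129. None of these 5 overlapped H3K9me3, where 11.8% of all 237 peaks and 44.1% of the whole KAP1 list did. The nearest H3K9me3 region lay 28.1, 30.6, 25.4 and 54.6 kb from the first 4. The peak on chromosome 4 lay 2.61 kb from a region of 5391 bp. Whether the tied peaks belong below these 5 is unknown, since the origin of their shared score is not stated.

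The name dispersed held for only part of these peaks. They fell in 144 windows of 1 Mb, and 116 of those windows held 1 peak. A further 19 windows held 3 or more, and these contained 103 of the 237 peaks (43.5%). The densest stretch was on chromosome 13 from 21 to 24 Mb, where consecutive windows held 14, 8 and 7. All 29 peaks there were free of H3K9me3, and their scores ran from 816 to 3177. Chromosome 3 held 9 from 96 to 97 Mb, with scores from 822 to 3100, and chromosome 6 held 6 from 128 to 129 Mb, with scores from 1372 to 3100. Neither window had a peak that overlapped H3K9me3. The share with overlap was 11.8% over all 237 peaks and 44.1% over the whole KAP1 list, and neighbouring peaks in these windows are not independent.

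Windows on chromosomes 1, 11, 14 and 17 held further sets. On chromosome 11, 5 peaks lay between 48631800 and 48670987, with scores of 2895 and 1625 for the first 2 and the tied 3100 for the other 3. Another 6 lay between 68850125 and 68939201, of which 4 had the tied value and the others scored 2570 and 1740. These 6 were 196 to 283 kb from the nearest H3K9me3 region, whereas the first set was 1.89 to 32.0 kb from it. On chromosome 14, 5 peaks lay between 51683136 and 51710662, 115 kb or more from H3K9me3, with a median score of 2827. On chromosome 1, 8 peaks lay between 167571515 and 173042166, in sets of 2, 4 and 2, the middle set 0.650 to 6.81 kb from H3K9me3. Together with 7 peaks on chromosome 17 from 23 to 24 Mb, these places held 31 peaks, of which 0 overlapped H3K9me3. Among all 237 peaks 11.8% overlapped, and in the whole KAP1 list 44.1%.

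Chromosomes 11, 12 and 19 held the other windows with 4 peaks. On chromosome 11 these ran from 87 to 88 Mb (scores from 1111 to 1474), from 97 to 98 Mb (1462 to 3100) and from 101 to 102 Mb (961 to 1542). On chromosome 19, 4 peaks lay within 10.7 kb from 12076512, with scores from 1549 to 3100. On chromosome 12, from 114013824 to 114023117, all 4 peaks of the window overlapped H3K9me3. The 15 windows with 4 or more peaks held 91 peaks in all, and the 4 on chromosome 12 were their only overlaps with H3K9me3. Outside those windows 24 of 146 peaks overlapped (16.4%, interval 11.3 to 23.3).

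By chromosome, 33 of the 237 peaks were on chromosome 13 (13.9%, interval 10.1 to 18.9) and 29 on chromosome 11 (12.2%, interval 8.66 to 17). Of all 19085 dispersed KAP1 peaks, these chromosomes held 5.23% and 4.68%. For each 1000 dispersed peaks there were 33.1 high-scoring peaks on chromosome 13 and 32.5 on chromosome 11, against 12.4 over all chromosomes. The ratio was 3.05 on the X chromosome, with 4 peaks, 3.20 on chromosome 18, with 2, and 4.34 on chromosome 4, with 5. On the Y chromosome 0 of 24 dispersed peaks scored this high. The peaks of chromosome 13 lay mostly in its 3 dense windows, and those of chromosome 11 in several places along it.

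**Figure D2:**
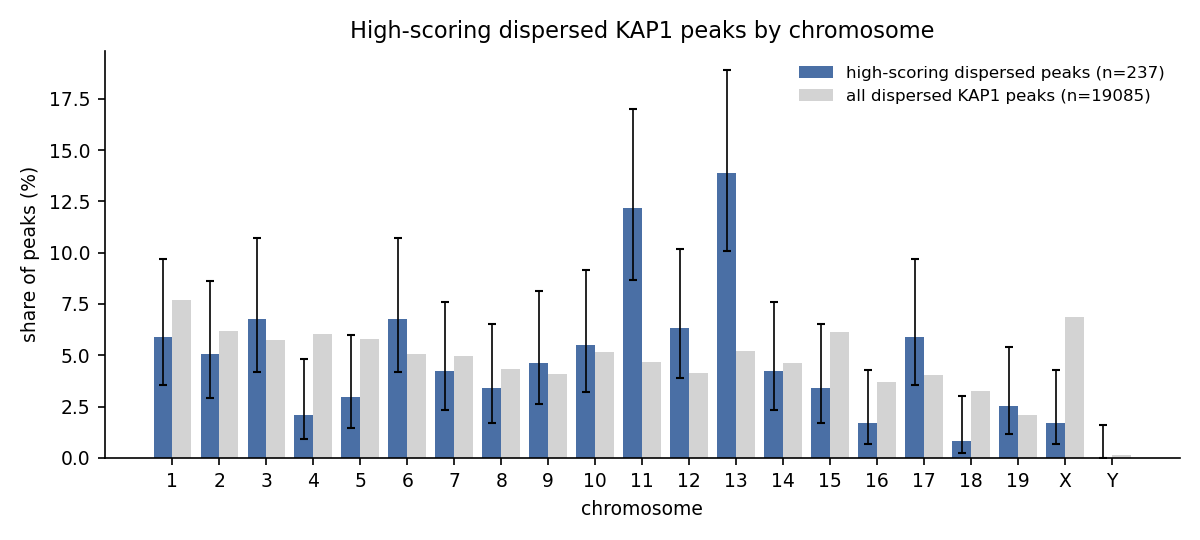
Share of peaks (vertical axis, %) on each chromosome (horizontal axis) for the 237 high-scoring dispersed peaks (blue) and for all 19085 dispersed KAP1 peaks (grey). Lines on the blue bars are 95% Wilson intervals. Chromosomes 13 and 11 stand highest in blue, at 13.9% and 12.2%.

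Spacing showed the same grouping on a finer scale. Another high-scoring dispersed peak lay within 10 kb of 92 of the 237 (38.8%, interval 32.8 to 45.2), within 1 kb of 50 (21.1%) and within 200 bp of 20 (8.44%). The chain rule limits this from above, since chains of 10 or more were removed. Joined at 10 kb, the 237 peaks formed 145 lone peaks, 20 pairs and 13 groups of 3 to 7. When all KAP1 peaks were considered, 91 (38.4%) had no neighbour within 10 kb, against 45.8% of the whole list. Among the 638 dispersed peaks with scores above 400 to 800 the share was lower, at 24.1%. In 20 chains of 2 or more peaks, every peak scored above 800.

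The largest group had 7 peaks in 17.1 kb on chromosome 17, from 23670579 to 23687677. In order of position the scores were 1508, 1204, 2148, 2831, 3100, 3100 and 2918, and the widths lay between 621 and 966 bp. No lower-scoring KAP1 peak belonged to this chain, and the nearest H3K9me3 region was 30.8 kb away. On chromosome 13, from 21252278 to 21265145, 5 peaks stood in 12.9 kb with scores of 2251, 1578 and, for the last 3, 3100. A further 5 on that chromosome, from 22107391 to 22121431, had scores of 1884, 2282, 3177, 879 and 2400. Chromosome 2 held 3 peaks in 3.38 kb from 122200886, with scores of 2431, 3100 and 2481. High and low scores therefore stood side by side within a group. Of the 13 groups of 3 or more, 1 had a peak that overlapped H3K9me3, and over all 178 groups and lone peaks 25 did (14%, interval 9.70 to 19.9).

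**Figure D3:**
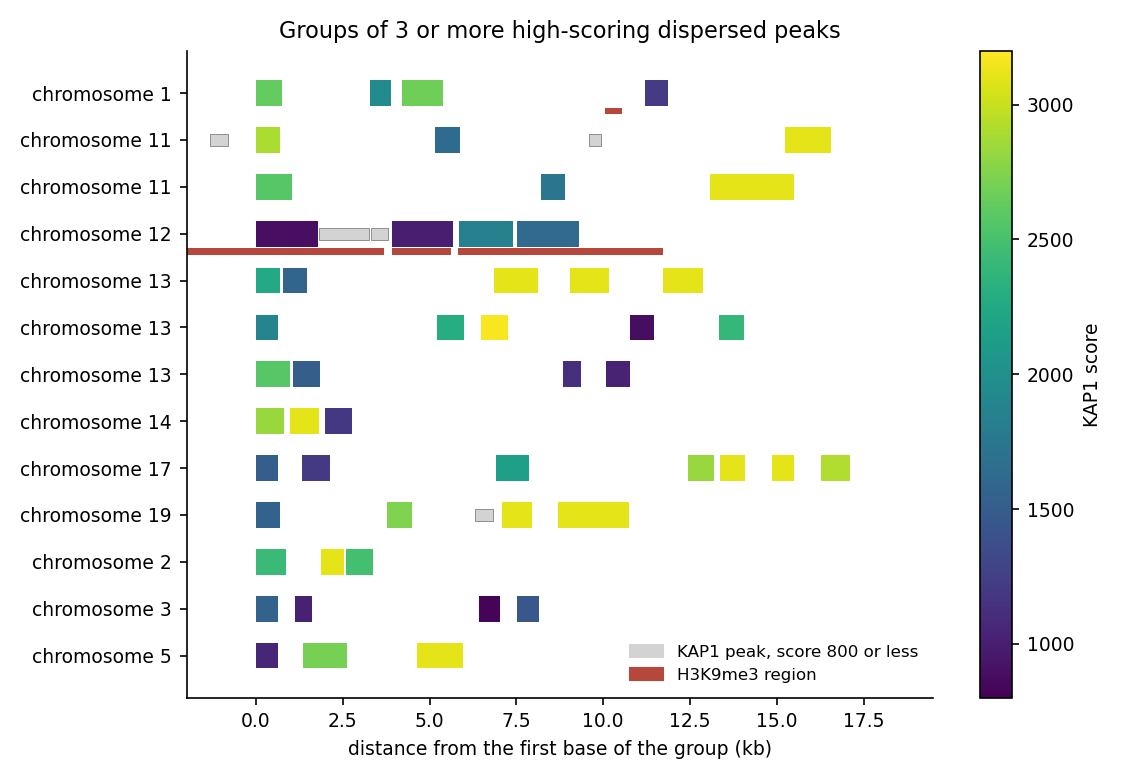
The 13 groups of 3 or more high-scoring dispersed peaks, 1 row each, drawn to scale by distance from the group's first base (horizontal axis, kb) and coloured by deposited KAP1 score. Grey boxes are KAP1 peaks with a score of 800 or less and red bars H3K9me3 regions, both drawn up to 2 kb beyond the group. Only the row of chromosome 12 has red bars under its peaks, and the row of chromosome 17 holds 7 peaks in 17.1 kb.

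The median width of the high-scoring peaks was 855 bp (quartiles 690 and 1148). This was above the upper quartile of lower-scoring dispersed peaks (median 645 bp, upper quartile 833 bp) and below the median of 1440 bp of the 638 dispersed peaks with scores above 400 to 800. Width followed score in the lower-scoring dispersed peaks (Spearman's rho of 0.64 over 18848 peaks of 1 library). Over the 237 high-scoring peaks rho was 0.11, and both values are a description. The sets cover unlike ranges of score and 57 of the high-scoring peaks are tied, so the rho values cannot be compared. The 68 peaks with scores above 2000 and below the tie had a median width of 798 bp, and the 57 tied peaks 1103 bp, with a range from 442 to 6081 bp.

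The 5 widest peaks all lacked H3K9me3 overlap, although 8 of the 15 high-scoring peaks of 2500 bp or more had it (53.3%). Over all 237 peaks the share was 11.8%, and over the whole KAP1 list 44.1%. The widest, chr17:39979900-39985980, spanned 6081 bp and had the tied score. It was followed by chr6:147498152-147503461 (5310 bp, score 1068), chr10:57686365-57691624 (5260 bp, score 1106) and chr1:24618183-24623193 (5011 bp, score 1318). The fifth, chr15:91736877-91741018, spanned 4142 bp and had the tied score. Among these, 4 had no other KAP1 peak within 10 kb, and the exception was on chromosome 10, in a chain of 6. The narrowest peak was chr13:113368341-113368577 (237 bp, score 966), followed by chr6:69466331-69466579 (249 bp, score 1754). The next were chr4:63263210-63263546 (337 bp), chr12:3109825-3110191 (367 bp) and chr11:101506984-101507369 (386 bp).

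**Figure D4:**
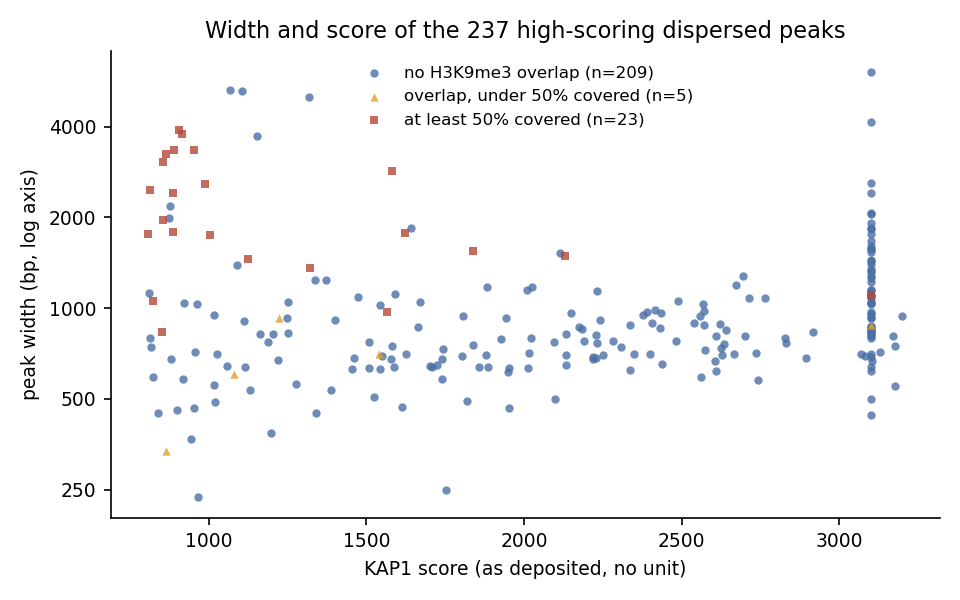
Width (vertical axis, bp, log scale) against deposited KAP1 score (horizontal axis, no unit) for the 237 high-scoring dispersed peaks, 1 point each, marked by how much of the peak H3K9me3 regions covered. The 23 peaks covered by at least 50% (red squares) gather at low scores and large widths, with a median score of 916 and a median width of 1792 bp. The column of points at 3100 is the tie.

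H3K9me3 overlapped few of the high-scoring dispersed peaks. By at least 1 bp it overlapped 28 of 237 (11.8%, interval 8.30 to 16.5), where 44.1% of all KAP1 peaks did. At least 50% of the peak was covered in 23 (9.70%), against 37.9% of the list. An H3K9me3 region lay within 10 kb of 66 (27.8%, interval 22.5 to 33.9), against 66.0%. Within 1 kb the share was 13.1%, against 50.4%. With a score limit of 1000 in place of 800 the overlap was 6.31% (13 of 206), and with a limit of 600 it was 34.7% (136 of 392), so the value depends on the limit. No test across samples was possible, since there is 1 library per antibody.

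Across the dispersed peaks, the share with H3K9me3 was highest at middle scores and lower on either side. It was 30.2% (interval 29.2 to 31.1) at scores up to 100, 50.1% above 100 to 200, 76.0% above 200 to 400, 77.6% (interval 73.7 to 81.1) above 400 to 600 and 69.7% (interval 62.0 to 76.4) above 600 to 800. Past the limit it was 36.7% above 800 to 1200 (18 of 49, interval 24.7 to 50.7) and 12.3% above 1200 to 2000 (7 of 57, interval 6.08 to 23.2). Above 2000 and below the tie 1 of 68 peaks overlapped (1.47%, interval 0.260 to 7.87), and in the tie 2 of 57 (3.51%, interval 0.968 to 11.9). All 6 peaks above the tie were free of it. The intervals of the 4 bands from 800 up to the tie all lay below those of the 3 bands from 200 to 800.

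**Figure D5:**
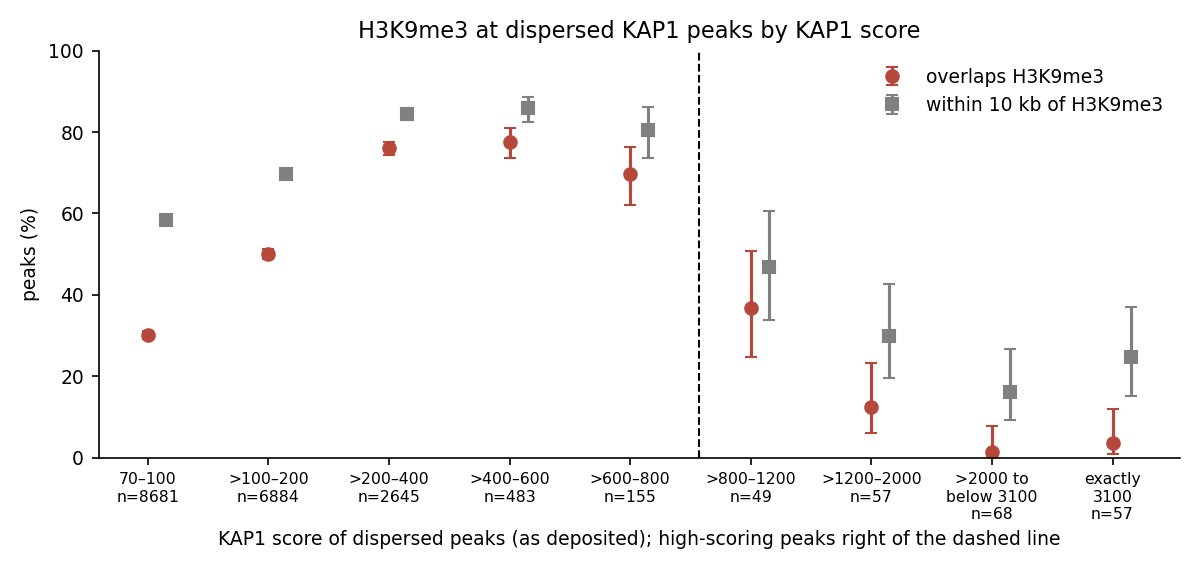
Share of dispersed KAP1 peaks (vertical axis, %) that overlapped an H3K9me3 region (red circles) or had a region within 10 kb (grey squares), by band of deposited KAP1 score (horizontal axis, number of peaks under each band). Bars are 95% Wilson intervals. The circles stand at 77.6% in the band above 400 to 600 and at 1.47% in the band above 2000 and below 3100. The 6 peaks above 3100 are not drawn.

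The shares were next compared within classes of width, since a wider peak has more bases that can overlap. With all widths together, 483 of the 638 dispersed peaks with scores above 400 to 800 overlapped (75.7%). Of all dispersed peaks with scores of 800 or less, 45.4% did, so this band is higher than the lower-scoring peaks as a whole. Width classes of those other peaks were not compared. Among peaks of 700 to under 1000 bp, 5 of 89 high-scoring ones overlapped H3K9me3 (5.62%, interval 2.42 to 12.5), against 105 of 144 with scores above 400 to 800 (72.9%, interval 65.1 to 79.5). From 1000 to under 1500 bp the counts were 5 of 44 (11.4%) and 89 of 132 (67.4%). From 1500 to under 2500 bp they were 8 of 24 (33.3%, interval 18.0 to 53.3) and 208 of 229 (90.8%, interval 86.4 to 93.9). At 2500 bp or more they were 8 of 15 (53.3%, interval 30.1 to 75.2) and 58 of 79 (73.4%, interval 62.8 to 81.9), and there the intervals met. From 500 to under 700 bp they were 1 of 50 (2.00%, interval 0.354 to 10.5) and 17 of 39 (43.6%, interval 29.3 to 59.0). Below 500 bp each set held 15 peaks, with 1 and 6 overlaps, whose intervals also met.

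The 28 overlapping peaks were wider and lower in score than the other 209. Their median score was 971 and their median width 1753 bp, against 2282 and 818 bp. The H3K9me3 regions they met had a median width of 3789 bp, close to the 3957 bp for dispersed peaks with scores above 400 to 800. In 15 cases the region covered the whole peak. In 5 cases less than 50% was covered, and 4 of the regions taken for these peaks lay wholly inside the KAP1 peak. The overlaps therefore included peaks buried in broad H3K9me3 and peaks that only touched a short region.

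Above a score of 2000 there were 131 peaks, and 3 of them overlapped H3K9me3. On chromosome 8 a peak at 79972397 to 79973499 (1103 bp, score 3100) lay wholly inside a region of 7648 bp with an H3K9me3 score of 860. On chromosome 2 a peak at 157384990 to 157386478 (1489 bp, score 2129) lay wholly inside a region of 7752 bp with an H3K9me3 score of 1029. The third, chr9:78022934-78023811 (878 bp, score 3100), contained a region of 129 bp that covered 14.7% of it. So 2 of the 131 were embedded in broad H3K9me3.

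The next overlapping peaks by score were the pair chr12:114019665-114021215 (score 1839) and 114021339 to 114023117 (score 1622). Both lay inside a region of 5903 bp with an H3K9me3 score of 1641. Their neighbours from 114013824 and from 114017753 scored 887 and 1004 and were covered by 100% and 97.1%. In no other group of 3 or more did a peak overlap H3K9me3, and without its 4 peaks the overlap was 24 of 233 (10.3%). Further down came chr5:144014454-144017315 (score 1581, 89.7% covered), chr9:123259774-123260748 (score 1566, wholly covered) and chr7:73506410-73507767 (score 1321, wholly covered). The peaks chr2:6997033-6997737 (score 1540) and chr15:86025003-86025933 (score 1223) were covered by 39.3% and 40.3%.

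For the 209 peaks without overlap the median distance to the nearest region was 34.9 kb, against 17.6 kb for the 10289 lower-scoring dispersed peaks without overlap. The farthest was chr7:128061902-128062524 (score 2336), 360 kb away. Within 50 kb of the midpoint, 67 of the 237 high-scoring peaks had no H3K9me3 region (28.3%), against 14.4% of the whole list. The median length of H3K9me3 in that span was 0.950 kb for the high-scoring peaks, 6.0 kb for dispersed peaks with scores above 400 to 800 and 2.70 kb for all lower-scoring dispersed peaks. That length includes any region the peak itself overlaps, so it partly repeats the overlap shares. These distances use peaks that are neighbours of one another and so are not independent values.

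Lower-scoring KAP1 peaks that stood in the same chains as high-scoring ones numbered 117, with a median score of 137.6. Of these, 33 overlapped H3K9me3 (28.2%). In chains where a high-scoring peak overlapped, 16 of 25 lower-scoring peaks did (64.0%, interval 44.5 to 79.8). In chains where no high-scoring peak overlapped, 17 of 92 did (18.5%, interval 11.9 to 27.6). Over all lower-scoring dispersed peaks in chains of 2 to 9 the share was 62.6% (6253 of 9994). Of the high-scoring peaks themselves, 11 of 91 with no KAP1 peak within 10 kb overlapped (12.1%, interval 6.89 to 20.4), and 17 of 146 in chains did (11.6%, interval 7.40 to 17.9). In the lower-scoring dispersed peaks those shares were 26.0% and 62.6%.

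The 124 peaks above 800 that the chain rule set aside overlapped H3K9me3 in 12 cases (9.68%, interval 5.62 to 16.2), an interval that overlaps that of the dispersed ones. Of the 12, 0 were covered by 50% or more and 11 met a region that lay wholly inside the KAP1 peak. Of the 28 dispersed ones, 23 were covered by 50% or more and 7 met such a region. The regions met had a median width of 351 bp in the dense chains and 3789 bp at the dispersed peaks. Within 10 kb of H3K9me3 lay 50.8% of the former and 27.8% of the latter.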

How the data were processed

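Peak lists of the KAP1 and H3K9me3 libraries were used as the authors deposited them. The submitters' processing notes name Bowtie2 2.2.1 and build mm9. Every deposited region has a position, a name and a score. The KAP1 peaks bear names of the form that MACS writes. The meaning of the scores, the caller's settings, its control and the handling of reads that fit several places (which bears on peaks in repeated sequence) are not stated. Scores were compared within their list only.

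An overlap was 1 shared bp or more. Widths, scores and positions of regions met refer to 1 region per peak, the region with the largest overlap. Distances are gaps between region ends. Peaks were assigned to 1 Mb windows by midpoint. The interval code was tested on simulated data. There was 1 library per antibody, so no test was run. Regions named are the 5 with the highest scores, the 5 widest and narrowest, the 10 highest-scoring with H3K9me3, those beside the score limit, the farthest from H3K9me3, windows with 4 or more, and the windows that the selection rule lists; groups were named after their values were seen. The members and lists were chosen with earlier results of these data known. Alternatives changed the score limit, the chain rule, the overlap definition, the chromosomes and the tied scores. Software: pandas 2.3.3, numpy 2.4.6 and matplotlib 3.10.9 under Python 3.11.15.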

Additional observations from a re-analysis of the deposited data

How the results depend on the processing

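With a limit of 600 there were 392 peaks, of which 34.7% overlapped H3K9me3, 48.7% lay within 10 kb of it, 26.3% had another such peak within 10 kb, 30.1% lay in windows with 3 or more and 14.5% had the tied score, and the median width was 1048 bp. With a limit of 1000 the overlap was 6.31%. With no chain dropped there were 361 peaks with a median width of 945 bp, of which 35.7% lay within 10 kb of H3K9me3, 59.6% had another such peak within 10 kb and 62.9% lay in windows with 3 or more. The last 2 shares were 32.8% and 33.8% with chains made at 20 kb, and 29.7% and 32.3% with chains of 5 or more dropped. Without the tied peaks the median width was 786 bp and the share in such windows 36.1%. Against the upper 50% of H3K9me3 regions 18.1% lay within 10 kb, and 71.7% of peaks lay within 50 kb of any region. The cause was not tested beyond what each definition adds or removes. The other settings kept each share or width inside the interval of the reported value and each count within 1.5 times it. Among them the overlap ran from 9.70% with 50% of the peak covered to 14.4% without the tied peaks. The setting without the 4 peaks on chromosome 12 was chosen after seeing the data. No paired analysis was possible because each antibody had 1 library. As the depth is unknown, no limit of detection can be given for H3K9me3.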
